A study of Mus musculus with 6 samples.

Results

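Genes of the extracellular matrix, 10 in number (Eln, Fbn1, Fbln1, Fbln2, Fbln5, Postn, Tnc, Fn1, Sparc and Emilin1), were followed in the colon of mice without TNF receptor 1. They encode elastic fibre components and matricellular glycoproteins, and were chosen by symbol from the processed expression table, each transcript taken once. They make up 10 of the 30419 genes with a value, and all 10 were among the 14284 genes that averaged 1 TPM or more over the libraries and were tested. TPM is an abundance corrected for transcript length. The 10 genes have 53 of the 86818 transcripts with a value, and 30 of the 31056 transcripts tested.

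RNA of the whole colon was compared between 3 R1ko mice, the label given to the Tnfrsf1a-/- genotype, and 3 WT mice. All were males of 12 weeks, and the labels give the strain C57Bl/6J for both groups. Tnfrsf1a encodes TNF receptor 1, the main signalling receptor for tumour necrosis factor. Which part of the gene was removed, and whether the mice were littermates, the sources used here do not say.

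Elastic fibres have a core of cross-linked elastin laid down on microfibrils of fibrillin, with fibulins and emilins at the boundary between them. Fibronectin forms an earlier network on which other matrix proteins assemble. Matricellular proteins such as periostin, tenascin-C and SPARC sit in the same matrix but act mainly on cells and on the assembly of collagen; in the gut wall all of these are made chiefly by fibroblasts and smooth muscle.

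The libraries set limits on every value below. Transcripts without a gene took 2.60, 7.23 and 1.86% of all TPM in R1ko replicates 1, 2 and 3, and 4.05, 27.4 and 2.79% in WT replicates 1, 2 and 3, which lowers the TPM of all other transcripts in WT replicate 2. Values are therefore given as deposited and, where it matters, after division by median-of-ratios factors, which were 1.06, 0.918 and 1.07 for R1ko and 1.13, 0.786 and 1.10 for WT. R1ko replicate 2 was the lowest R1ko library for all 10 genes as deposited, and the lowest of the 6 libraries for 9 of 10 after scaling. The targeted gene was still read in R1ko colons: its full-length transcript ENSMUST00000032491 had 23.5, 20.4 and 25.6 TPM in R1ko replicates 1, 2 and 3, against 67.6, 39.9 and 59.1 TPM in WT replicates. The downstream form ENSMUST00000125880 had 18.0, 12.4 and 14.1 TPM in R1ko replicates and 1.202, 1.204 and 0.890 TPM in WT replicates. It passed the threshold (limma log2 fold change 3.25 ± 0.24 SE, adjusted p = 0.00124; 0.0513 without WT replicate 2), while the full-length transcript did not pass as deposited (adjusted p = 0.197) and passed after scaling (0.0168) and with the filter on low values at 5 TPM (0.0404).

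Of the 10 genes, 0 passed an adjusted p of 0.05 between genotypes by limma, a linear model on log2(TPM + 0.5) with p-values adjusted over all genes tested. Among all genes 0.266% were called. At an unadjusted p of 0.05, 2 of the 10 passed, Eln and Postn, both lower in R1ko, against 3.7% of all genes in either direction and 1.97% lower. After scaling, 3 of the 10 passed unadjusted (Eln, Postn and Fn1, all lower in R1ko) and 0 adjusted, against 11.4% (5.75% lower) and 0.042% of all genes. The median log2 fold change of the 10 genes was -0.14, beside 0.025 for all genes tested, and -0.16 beside -0.0027 after scaling. Without R1ko replicate 2 that median was 0.12 as deposited and 0.03 after scaling, so the sign of the group median rests on this library. In whole tissue, fewer cells of a type and less RNA per cell cannot be told apart.

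**Figure D1:**
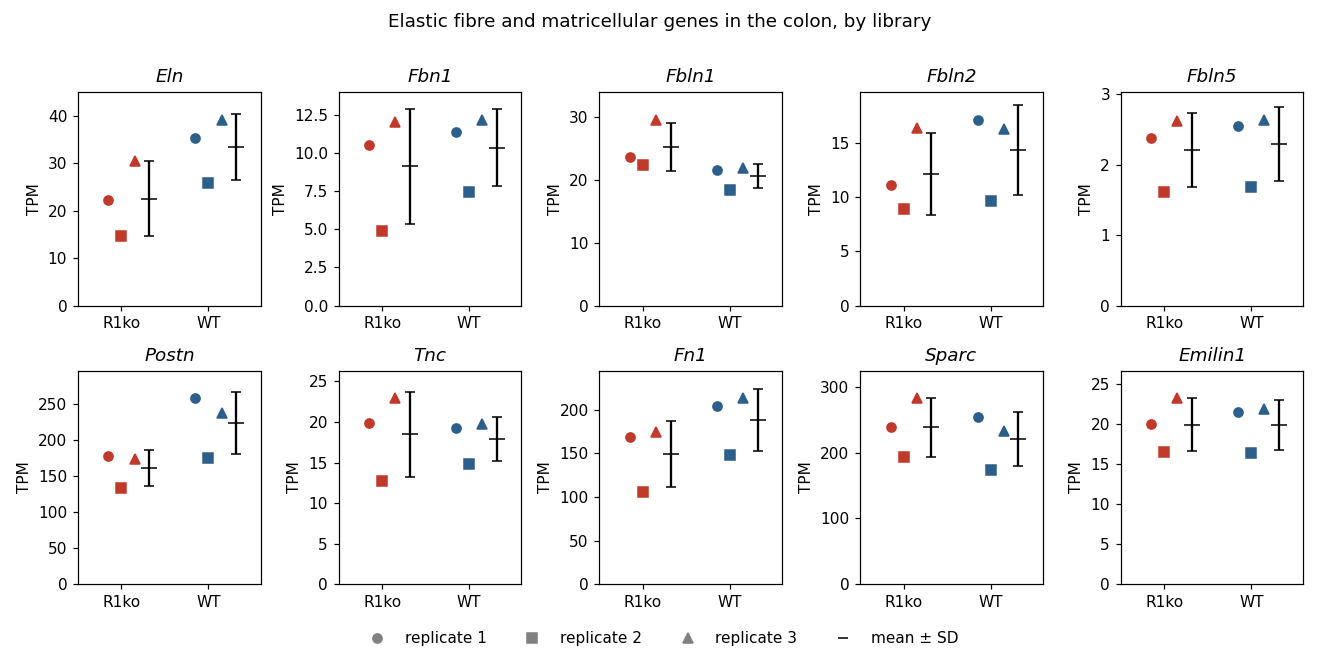
TPM as deposited of each of the 10 genes (vertical axis, starting at 0) in R1ko and WT colons; symbols mark replicates 1 to 3, and the bar is the mean ± SD of 3 mice. Replicate 2 is the lowest point of its group in every panel, and Fbln1 is the one gene whose R1ko points all lie above its WT points.

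Expression spanned a wide range. SPARC, periostin and fibronectin transcripts stood far above the rest, with means over the 6 libraries of 229.3, 192.3 and 169.0 TPM. Eln followed at 28.0 TPM, Fbln1 at 22.9, Emilin1 at 19.97, Tnc at 18.2, Fbln2 at 13.2, Fbn1 at 9.72 and Fbln5 at 2.25 TPM. Some neighbours in this order were not separated: Sparc exceeded Postn in 3 of 3 R1ko libraries and in 0 of 3 WT libraries, and Eln exceeded Fbln1 in 1 of 3 R1ko libraries and in 3 of 3 WT libraries. Postn exceeded Fn1 in 2 of 3 R1ko and 3 of 3 WT libraries, and Fbln1 exceeded Emilin1 in 3 of 3 R1ko and 2 of 3 WT libraries. The remaining neighbours kept their order in all 6 libraries. The 10 genes together held 694.8, 513.6 and 767.3 TPM in R1ko replicates and 844.9, 591.3 and 817.6 TPM in WT replicates (658.6 ± 130.7 against 751.3 ± 139.2 TPM, SD, n = 3 each; two-sided exact permutation p = 0.5). These sums overlapped between genotypes.

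Elastin is the cross-linked polymer that gives the fibre its recoil. Eln (ENSMUSG00000029675, mm10 chr5:134702593-134747323, minus strand) was read as 1 transcript, with 22.4, 14.8 and 30.6 TPM in R1ko replicates 1, 2 and 3 and 35.3, 25.8 and 39.3 TPM in WT replicates. The R1ko mean was 22.6 ± 7.93 TPM and the WT mean 33.5 ± 6.92 TPM (SD, n = 3 each), and R1ko replicate 3 lay above WT replicate 2. The log2 fold change was -0.60 ± 0.24 (SE; 95% interval -1.09 to -0.10), with a limma p of 0.0204 and an adjusted p of 0.944. After scaling the values were 21.1, 16.1 and 28.7 in R1ko and 31.3, 32.9 and 35.8 in WT, which no longer overlapped, with a log2 fold change of -0.63 ± 0.19 and an adjusted p of 0.364. Without R1ko replicate 2 the difference shrank to -0.33 as deposited and to -0.43 after scaling. Eln thus had the lowest log2 fold change of the 10 genes in the fit to deposited values, without passing the test over all genes.

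The microfibril and the fibre boundary showed smaller differences than Eln. Fbn1 (ENSMUSG00000027204) encodes fibrillin-1, the microfibril scaffold that also binds latent TGF-β complexes. It had 10.5, 4.86 and 12.0 TPM in R1ko replicates and 11.3, 7.45 and 12.2 TPM in WT replicates, with overlapping groups and a log2 fold change of -0.23 (95% interval -0.79 to 0.33, limma adjusted p = 1.0). Its low R1ko mean came with replicate 2, without which the difference was 0.15 as deposited and 0.049 after scaling. Emilin1 (ENSMUSG00000029163) encodes the glycoprotein found between elastin and microfibrils. It had 20.03, 16.6 and 23.3 TPM in R1ko replicates and 21.6, 16.4 and 22.0 TPM in WT replicates. The group means were 19.97 ± 3.32 TPM in R1ko and 19.98 ± 3.12 TPM in WT, and the 95% interval of the log2 fold change ran from -0.45 to 0.45.

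The fibulins differed from each other in level and in sign. Fbln5 (ENSMUSG00000021186), which mice need to assemble elastic fibres, was the lowest of the 10 genes, with 2.38, 1.61 and 2.62 TPM in R1ko replicates and 2.55, 1.69 and 2.64 TPM in WT replicates (log2 fold change -0.05, or 0.02 after quantile normalization, 95% interval -0.63 to 0.54, limma adjusted p = 1.0). Both groups were spread over the same range. Fbln1 (ENSMUSG00000006369, mm10 chr15:85205949-85286535, plus strand) encodes fibulin-1, which binds fibronectin and basement membrane proteins, and had 23.6, 22.4 and 29.6 TPM in R1ko replicates and 21.6, 18.5 and 21.9 TPM in WT replicates. Every R1ko library lay above every WT library; among all genes tested the groups did not overlap for 4.98%, and for 3.17% with R1ko higher. The means were 25.2 ± 3.85 TPM in R1ko and 20.6 ± 1.88 TPM in WT (SD, n = 3 each), and the log2 fold change was 0.28 ± 0.21 (SE; limma p of 0.201, adjusted p = 1.0). After scaling the values were 22.2, 24.5 and 27.8 in R1ko and 19.1, 23.5 and 19.9 in WT, which overlapped (adjusted p = 0.465).

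Fbln1 is read as 2 full-length forms that end in different last exons and so differ at the C-terminus. The transcript ending in the distal exon (mm10 chr15:85285040-85286535, 1496 bases) took 45.5, 45.3 and 43.7% of the full-length Fbln1 TPM in R1ko replicates and 47.2, 47.4 and 45.5% in WT replicates; the rest ended in the proximal exon (chr15:85251445-85251885, 441 bases). The groups did not overlap, but the highest R1ko and lowest WT values are equal as printed (two-sided exact permutation p = 0.1, the smallest that 3 against 3 allows; adjusted p = 0.636 over 14 such measures of transcript form). Fbln2 (ENSMUSG00000064080), whose protein binds elastin, fibrillin and fibronectin, had 11.2, 8.92 and 16.3 TPM in R1ko replicates and 17.2, 9.62 and 16.3 TPM in WT replicates, with overlapping groups and a log2 fold change of -0.23 (95% interval -0.75 to 0.29). That value was -0.04 without R1ko replicate 2 (-0.14 after scaling) and -0.49 without WT replicate 2. An internal exon of Fbln2 (mm10 chr6:91259630-91259770, plus strand, 141 bases in GENCODE M21) is present in 1 of its 2 full-length transcripts and is printed because it is the difference between them, in lower case and 5′ to 3′:
Fbln2 141-base exon: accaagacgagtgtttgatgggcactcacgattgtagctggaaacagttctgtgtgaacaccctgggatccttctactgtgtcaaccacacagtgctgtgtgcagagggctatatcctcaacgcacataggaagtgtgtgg
This exon was in 58.4, 63.4 and 74.4% of the full-length Fbln2 TPM in R1ko replicates and 65.5, 61.1 and 71.3% in WT replicates. These percentages overlapped between genotypes (exact permutation p = 1).

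Periostin, a protein with fasciclin domains that binds collagen, fibronectin and integrins, gave the smallest p of the 10 genes after scaling. Postn (ENSMUSG00000027750, mm10 chr3:54361109-54391037, plus strand) had 177.4, 132.7 and 173.5 TPM in R1ko replicates and 257.3, 175.1 and 237.6 TPM in WT replicates. The 2 groups overlapped as deposited, since R1ko replicate 1 lay above WT replicate 2. The means were 161.2 ± 24.7 TPM in R1ko and 223.3 ± 42.9 TPM in WT (SD, n = 3 each), with a log2 fold change of -0.46 ± 0.20 (SE; 95% interval -0.88 to -0.04, limma p of 0.0316, adjusted p = 1.0). After scaling the libraries of each group drew together, at 167.0, 144.6 and 162.8 in R1ko and 227.6, 222.9 and 216.3 in WT, and the groups no longer overlapped. The scaled log2 fold change was -0.49 ± 0.08 (95% interval -0.67 to -0.32), with a limma p of 0.000285 that became 0.194 after adjustment over all genes. Without R1ko replicate 2 it was -0.33 as deposited and -0.43 after scaling, and without WT replicate 2 it was -0.63 and -0.49. Postn was lower in R1ko in each of these fits and passed the adjusted threshold in none.

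Periostin messages differ by short exons near the C-terminus, in a region whose splicing is known to vary between tissues. A pair of them is printed because they tell apart the 4 full-length Postn transcripts (mm10 chr3:54380412-54380492 and chr3:54385671-54385754, plus strand, GENCODE M21, 5′ to 3′):
Postn 81-base exon: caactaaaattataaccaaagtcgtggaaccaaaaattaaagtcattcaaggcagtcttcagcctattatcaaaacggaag
Postn 84-base exon: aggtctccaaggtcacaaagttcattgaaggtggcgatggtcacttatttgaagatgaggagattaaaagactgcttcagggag
The 81-base exon was in 3.36, 6.91 and 4.29% of full-length Postn TPM in R1ko replicates and 6.01, 3.72 and 4.87% in WT replicates. The 84-base exon was in 8.76, 9.06 and 5.08% in R1ko replicates and 7.44, 5.85 and 5.93% in WT replicates. Most periostin message in both genotypes thus lacked both exons, and neither share separated the groups (exact permutation p = 1 and 0.4). The most abundant transcript, ENSMUST00000117373, had 141.1, 94.6 and 143.2 TPM in R1ko replicates and 171.8, 133.8 and 183.6 TPM in WT replicates (limma log2 fold change -0.38 ± 0.21, adjusted p = 0.996).

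The partial Postn transcripts, 5 in number, were set beside the full-length ones. Full-length forms summed to 159.8, 112.3 and 157.7 TPM in R1ko replicates and 197.9, 147.7 and 205.3 TPM in WT replicates, while partial forms summed to 17.6, 20.4 and 15.8 TPM in R1ko replicates and 59.4, 27.4 and 32.3 TPM in WT replicates (exact permutation p = 0.3 for the full-length and 0.1 for the partial forms). Full-length forms made up 90.1, 84.6 and 90.9% of Postn TPM in R1ko replicates and 76.9, 84.3 and 86.4% in WT replicates. These shares overlapped (exact permutation p = 0.2, adjusted p = 0.636 over the 14 measures of transcript form). As deposited the full-length sums overlapped and the partial sums did not. After scaling neither overlapped: full-length forms were at 150.4, 122.4 and 147.9 in R1ko replicates and 175.1, 188.0 and 186.9 in WT replicates, and partial forms at 16.6, 22.2 and 14.8 in R1ko replicates and 52.5, 34.9 and 29.4 in WT replicates. Among the partial forms, ENSMUST00000143258, a 655-base coding fragment starting inside the gene and chosen here after its values were seen, had 12.0, 17.4 and 10.9 TPM in R1ko replicates and 49.1, 21.7 and 24.4 TPM in WT replicates. Its log2 fold change was -1.14 ± 0.31 (limma p of 0.0039, adjusted p = 0.638 over all transcripts). Kallisto divides reads among overlapping transcripts, so these values are estimates of forms and not separate counts. The most abundant transcript was a full-length one for Fbn1 (ENSMUST00000028633, 98.7% of the gene's TPM), Tnc (ENSMUST00000107377, 85.7%) and Fbln1 (ENSMUST00000109432, 54.4%), whereas for Fbln2 it was ENSMUST00000137029, a form with a retained intron, at 42.1%. Among all transcripts tested, 15556 had a negative and 15500 a positive log2 fold change. Across all 30 tested transcripts of the 10 genes, 25 had a negative and 5 a positive one. None passed the adjusted threshold, which 0.0419% of all transcripts did, and 2 (ENSMUST00000143258 and ENSMUST00000127452, both of Postn) passed at an unadjusted p of 0.05, both lower in R1ko, against 5.02% of all transcripts (2.97% lower). After scaling 0 passed adjusted, against 0.0451% of all transcripts, and 9 passed unadjusted, 8 of them lower in R1ko, against 11.2% (5.88% lower). Those 8 were all of Postn, Fn1 or Eln, and most of the 25 negative transcripts were of Fn1 or Postn. Transcripts of the same gene are not independent, so these counts do not show a difference spread over the 10 genes.

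**Figure D2:**
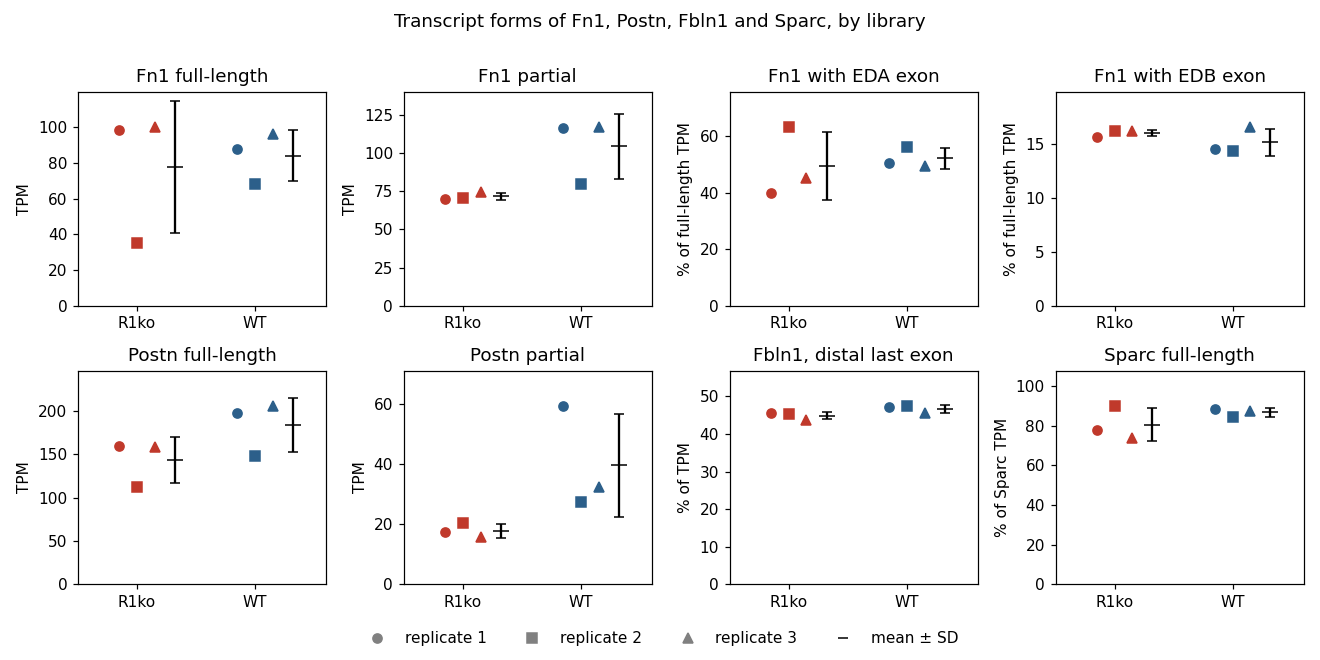
Transcript forms, as deposited, of Fn1, Postn, Fbln1 and Sparc by library in R1ko and WT colons (TPM, or percent of the TPM named on the vertical axis, from 0); symbols mark replicates 1 to 3 and the bar is the mean ± SD of 3 mice. Partial forms of Fn1 and of Postn lie lower in all R1ko libraries than in any WT library, while full-length Fn1 sets R1ko replicate 2, at 34.9 TPM, apart from the other 5 libraries. The percent of Fn1 or Postn TPM in full-length forms, which is not drawn, overlapped between genotypes.

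Tenascin-C is a hexameric glycoprotein with fibronectin type III repeats that is known to be induced in remodelling tissue. Tnc (ENSMUSG00000028364) had 19.9, 12.7 and 22.9 TPM in R1ko replicates and 19.2, 14.8 and 19.7 TPM in WT replicates. The groups overlapped, and the log2 fold change was 0.01 with a 95% interval of -0.47 to 0.49 (-0.02 after scaling, -0.38 to 0.35). An alternative exon of 273 bases that encodes a further repeat (mm10 chr4:63984460-63984732, minus strand) was in 6.71, 3.51 and 2.99% of full-length Tnc TPM in R1ko replicates and 7.80, 6.47 and 4.12% in WT replicates (exact permutation p = 0.3). Most full-length Tnc TPM thus lacked this exon in all 6 libraries.

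SPARC is a secreted calcium-binding protein that binds collagen and takes part in its deposition. Sparc (ENSMUSG00000018593) had 238.7, 193.5 and 282.1 TPM in R1ko replicates and 254.1, 174.1 and 233.0 TPM in WT replicates, with a log2 fold change of 0.11 ± 0.21 (SE; 95% interval -0.31 to 0.53, limma adjusted p = 1.0). The groups overlapped, as they did after scaling (0.08, 95% interval -0.14 to 0.30; -0.02 after quantile normalization). Its main transcript ENSMUST00000108858 was close in both groups, with means of 155.8 ± 12.5 TPM in R1ko and 158.1 ± 36.8 TPM in WT (SD, n = 3 each). A shorter coding form, ENSMUST00000141530, chosen after its values were seen, had 52.0, 19.4 and 72.5 TPM in R1ko replicates and 28.0, 26.7 and 28.5 TPM in WT replicates. The WT libraries were alike in this form, whereas the R1ko libraries lay on both sides of them (limma adjusted p = 1.0).

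Fibronectin is the integrin-binding glycoprotein on which fibrillin, fibulins and periostin are laid down. Fn1 (ENSMUSG00000026193, mm10 chr1:71585520-71653200, minus strand) had 168.7, 105.4 and 174.3 TPM in R1ko replicates and 204.8, 147.9 and 213.1 TPM in WT replicates, with a log2 fold change of -0.35 ± 0.22 (SE; 95% interval -0.80 to 0.09, limma p of 0.116, adjusted p = 1.0). The groups overlapped as deposited. After scaling, the values were 158.8, 114.9 and 163.5 in R1ko and 181.1, 188.2 and 194.0 in WT, which did not overlap (log2 fold change -0.38 ± 0.14, limma p of 0.025, adjusted p = 0.394). Without R1ko replicate 2 the difference was -0.12 as deposited and -0.22 after scaling. Counting Eln, Postn and Fn1, 3 of the 10 genes had groups that did not overlap after scaling, all lower in R1ko, beside 18.5% of all genes in either direction and 9.21% lower.

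Cellular fibronectin is distinguished by the extra domains A and B, each encoded by 1 exon, which plasma fibronectin from the liver lacks. Both exons are printed because they define the forms measured (mm10, minus strand, GENCODE M21; EDB chr1:71613763-71614035 with 273 bases and EDA chr1:71603660-71603929 with 270 bases, each 5′ to 3′):
Fn1 EDB exon: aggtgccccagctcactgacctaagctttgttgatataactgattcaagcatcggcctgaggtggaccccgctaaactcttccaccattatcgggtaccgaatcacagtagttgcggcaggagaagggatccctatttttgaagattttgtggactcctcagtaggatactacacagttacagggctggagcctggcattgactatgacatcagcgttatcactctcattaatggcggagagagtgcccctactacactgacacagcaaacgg
Fn1 EDA exon: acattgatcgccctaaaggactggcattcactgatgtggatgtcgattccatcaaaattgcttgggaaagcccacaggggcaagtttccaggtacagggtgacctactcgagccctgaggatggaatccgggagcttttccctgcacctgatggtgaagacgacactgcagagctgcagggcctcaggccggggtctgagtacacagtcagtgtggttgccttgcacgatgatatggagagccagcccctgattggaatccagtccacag
Of full-length Fn1 TPM, 40.02, 63.2 and 45.4% held the EDA exon in R1ko replicates, against 50.6, 56.4 and 49.5% in WT replicates. The EDB exon was in 15.7, 16.2 and 16.2% in R1ko replicates and 14.5, 14.4 and 16.6% in WT replicates. Both shares overlapped between genotypes (exact permutation p = 0.8 for EDA and 0.4 for EDB). The high EDA share of R1ko replicate 2 accompanied its low full-length total. Without that library the EDA groups did not overlap: the difference was -9.49 percentage points, against -2.64 with it (exact permutation p = 0.1, the smallest that 2 against 3 allows). The longest of 3 forms of the variable region made up 89.6 ± 1.17% in R1ko and 88.4 ± 1.59% in WT (SD, n = 3 each).

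Fn1 message was divided between 7 full-length and 10 partial transcripts. The full-length forms summed to 98.5, 34.9 and 99.98 TPM in R1ko replicates and 88.1, 68.2 and 96.0 TPM in WT replicates, with overlapping groups (exact permutation p = 1). The partial forms, most of them annotated with a retained intron or as targets of nonsense-mediated decay, summed to 70.3, 70.5 and 74.3 TPM in R1ko replicates and 116.7, 79.7 and 117.1 TPM in WT replicates (exact permutation p = 0.1). In R1ko replicates 1 and 3 the full-length sums thus lay above all WT sums and the partial sums below them. After scaling the full-length sums overlapped and the partial sums did not (66.1, 76.8 and 69.7 in R1ko, 103.2, 101.5 and 106.6 in WT). Full-length forms made up 58.4, 33.1 and 57.4% of Fn1 TPM in R1ko replicates and 43.0, 46.1 and 45.0% in WT replicates. These shares overlapped, with R1ko replicate 2 below all WT libraries (exact permutation p = 0.5). The most abundant Fn1 transcript, ENSMUST00000185408, which retains an intron, had 27.4, 49.4 and 40.4 TPM in R1ko replicates and 68.6, 41.9 and 56.9 TPM in WT replicates (limma log2 fold change -0.52 ± 0.25, adjusted p = 0.993).

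**Figure D3:**
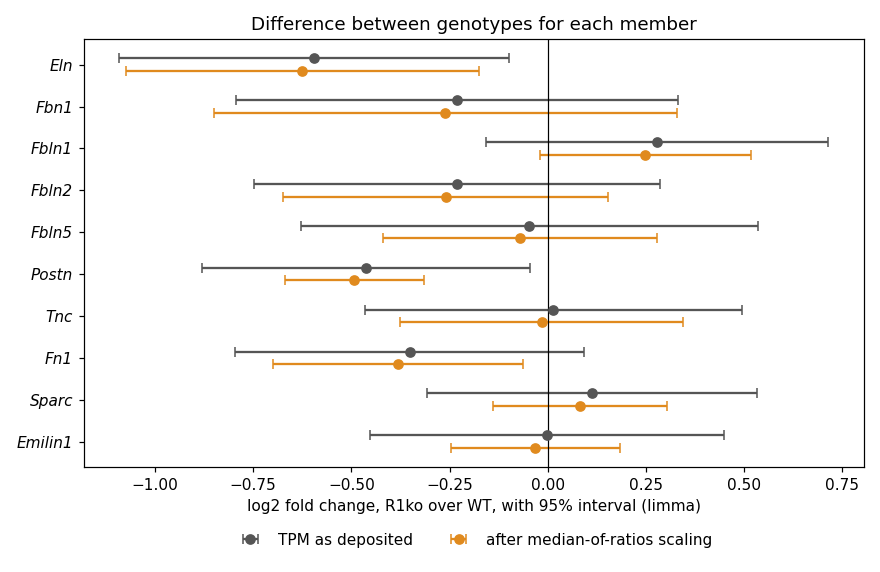
Log2 fold change of each gene, R1ko over WT, with its 95% interval from limma (horizontal axis), for deposited TPM (grey) and scaled TPM (orange); 3 mice per genotype. Only the intervals of Eln and Postn, and of Fn1 after scaling, exclude 0, before adjustment over all genes.

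A share within the summed TPM of the 10 genes does not depend on how a library is scaled, so it was compared as well. Sparc took 34.4, 37.7 and 36.8% of the sum in R1ko replicates and 30.1, 29.4 and 28.5% in WT replicates. Postn took 25.5, 25.8 and 22.6% in R1ko replicates and 30.5, 29.6 and 29.1% in WT replicates. Every R1ko library thus had a larger Sparc share and a smaller Postn share than every WT library. Shares of Eln (3.36 ± 0.57% in R1ko, 4.45 ± 0.32% in WT), Fbln1 (3.88 ± 0.48% in R1ko, 2.78 ± 0.30% in WT) and Emilin1 (3.05 ± 0.18% in R1ko, 2.67 ± 0.11% in WT) did not overlap either (SD, n = 3 each). Each of these 5 shares gave a two-sided exact permutation p of 0.1, the smallest possible, and 0.2 after adjustment over the 10 shares, so none can pass in this design. Shares depend on each other: with Sparc left out of the sum, Postn took 38.9, 41.5 and 35.8% in R1ko replicates and 43.6, 42.0 and 40.6% in WT replicates, which overlapped (p = 0.2, exact permutation). The Eln shares overlapped as well (exact permutation p = 0.3), while those of Fbln1 and Emilin1 still did not, nor did those of Fbln5 and Tnc, each higher in R1ko (exact permutation p = 0.1, adjusted 0.225 over 9 shares).

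**Figure D4:**
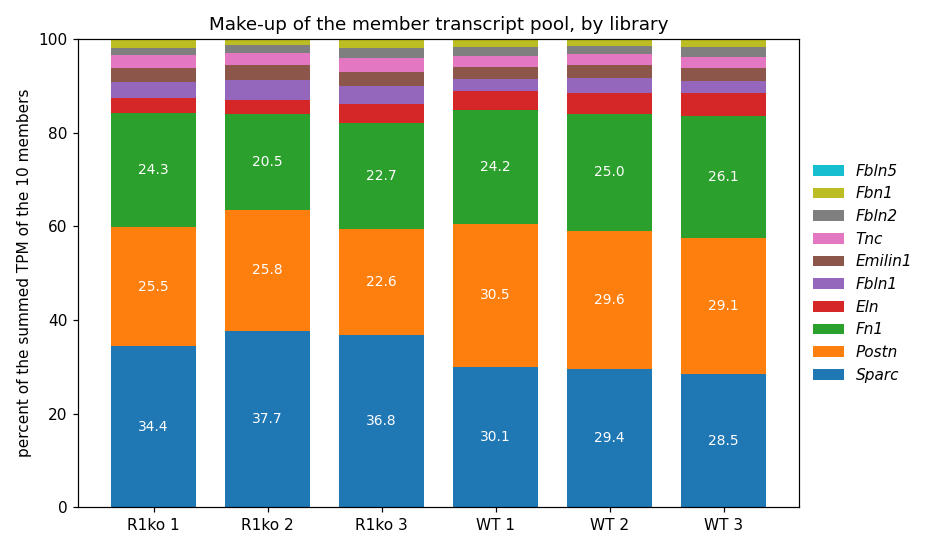
Percent of the summed TPM of the 10 genes taken by each gene (stacked bars, vertical axis from 0 to 100%) in each R1ko and WT library, with the values of Sparc, Postn and Fn1 printed. The Sparc band is 34.4 to 37.7% in R1ko and 28.5 to 30.1% in WT libraries.

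Lists of related genes are described by their counts. Among all genes tested, 7955 log2 fold changes were positive and 6329 negative as deposited, and 7049 and 7235 after scaling. The elastic fibre assembly and microfibril list holds lysyl oxidases, latent TGF-β binding proteins and microfibril-associated proteins. Of its 23 genes, 19 were tested and none passed. In this list 16 log2 fold changes were negative and 3 positive, with a median of -0.21 (-0.24 after scaling). Its scaled median log2 deviation from the mean of the 6 libraries was -0.07, -0.35 and 0.14 in R1ko replicates. In WT replicates it was 0.10, 0.03 and 0.12. Ltbp1, which stores latent TGF-β on microfibrils, had 22.2, 18.8 and 27.1 TPM in R1ko replicates and 33.9, 23.9 and 35.9 TPM in WT replicates (log2 fold change -0.45 ± 0.22, limma adjusted p = 1.0). Fbln7 lay at 0.936, 0.781 and 0.934 TPM in R1ko replicates and 1.32, 1.16 and 1.36 TPM in WT replicates, without overlap (-0.36 ± 0.30, adjusted p = 1.0). Among all genes tested the groups did not overlap for 4.98%, in either direction. Lox, the copper enzyme that cross-links elastin and collagen and chosen here after its values were seen, averaged 3.33 ± 0.58 TPM in R1ko and 3.94 ± 0.36 TPM in WT (SD, n = 3 each). All 3 had negative log2 fold changes, as did most of the list, and none passed. Ltbp1 and Fbln7 were named for the smallest p in the list, so their sign was not independent of how they were picked. The 3 positive genes of the list were Mfap5 (0.09), Hmcn1 (0.10) and Ltbp3 (0.006).

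Other matricellular glycoproteins had no common sign: 15 of 21 were tested, 9 with positive and 6 with negative log2 fold changes (median 0.07, 0 called). Cyr61, a CCN-family protein that binds integrins, had 24.8, 5.87 and 25.0 TPM in R1ko replicates and 11.5, 7.48 and 6.92 TPM in WT replicates. R1ko replicates 1 and 3 lay above all WT libraries and replicate 2 below them (log2 fold change 0.84 ± 0.34, limma p of 0.0198, adjusted p = 0.925). As deposited and without R1ko replicate 2, its log2 fold change was 1.51 and passed the threshold (limma adjusted p = 2.45e-05). Without WT replicate 1 it was 1.06 (limma adjusted p = 0.00773). After scaling it was 0.81 ± 0.48 and did not pass (limma p of 0.131, adjusted p = 0.535). Scaling without R1ko replicate 2 called 0 genes of the 5 lists. Thbs3, a thrombospondin, had 14.8, 7.17 and 14.7 TPM in R1ko replicates and 18.5, 12.0 and 21.6 TPM in WT replicates, with overlapping groups (limma adjusted p = 1.0).

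No gene passed in the lists of receptors, TGF-β signalling or proteases. Among integrin and syndecan receptors of these proteins, 13 of 14 genes were tested, 6 with positive and 7 with negative log2 fold changes. Sdc1, a syndecan of epithelium, averaged 133.2 ± 10.6 TPM in R1ko and 111.3 ± 33.0 TPM in WT, and Itga9, whose integrin binds tenascin-C, averaged 8.002 ± 2.21 TPM in R1ko and 9.98 ± 0.86 TPM in WT (SD, n = 3 each). Of the TGF-β list all 13 genes were tested, with a median of 0.04. Tgfbr3, the co-receptor betaglycan, averaged 6.08 ± 1.28 TPM in R1ko and 6.99 ± 1.595 TPM in WT. Of 13 proteases that cut these proteins 10 were tested, with a median of -0.04; Mmp2 averaged 25.8 ± 7.18 TPM in R1ko and 33.0 ± 6.88 TPM in WT, and Adamts5 1.81 ± 0.43 TPM in R1ko and 1.30 ± 0.48 TPM in WT. Over the 5 lists, 0 of 70 tested genes passed adjusted, as deposited and after scaling, while 2 and 8 passed at an unadjusted p of 0.05. Among all genes 3.7% and 11.4% did so.

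Markers of cells that the colon wall can hold were read beside the 10 genes and beside the signs of all genes given above. For all 8 fibroblast markers (Pdgfra, Dcn, Lum, Dpt, Col1a1, Col1a2, Col3a1 and Col6a1) the log2 fold change was negative (median -0.17, 0 called), and their summed level ranged from 625.7 to 920.9 TPM in R1ko and from 723.8 to 988.3 TPM in WT. In R1ko replicate 2, the scaled median deviation from the mean of the 6 libraries was -0.35 on the log2 scale for fibroblast markers and -0.36 for the 10 genes. Smooth muscle markers, 7 of 8 negative with a median of -0.08, deviated by -0.10 in that library. Colon epithelium markers, all 8 positive with a median of 0.21 and 0 called (1 at an unadjusted limma p of 0.05, 3 after scaling), deviated by 0.19 there. Macrophage markers deviated by -0.30 there, endothelial markers by -0.24 and pericyte markers by -0.18. Enteric glia and neuron markers were at 0.14, squamous and hair follicle markers at 0.02 and adipocyte markers at 0.68. The 1 tested mesothelium marker was at 0.53 and skeletal muscle markers at 1.66. Skeletal muscle markers also deviated by 1.31 in WT replicate 1 and by -2.30 in WT replicate 2. Enteric glia and neuron markers were positive for 6 of 7 genes, with a median of 0.15 and 0 called. Of 5 mesothelium markers 1 was tested, Upk3b, with a log2 fold change of 1.34 (limma adjusted p = 0.286). Adipocyte markers, all 6 positive with a median of 1.05 and 1 called (Cfd; 0 after scaling), summed to between 178.9 and 247.0 TPM in R1ko and between 52.2 and 147.9 TPM in WT. Skeletal muscle markers, all 6 positive with a median of 1.37 and 0 called (6 at an unadjusted p of 0.05, 1 after scaling), summed to between 1055 and 2819 TPM in R1ko and between 176.6 and 2794 TPM in WT. Of 7 squamous epithelium and hair follicle markers 3 were called as deposited and 0 after scaling: the hair follicle genes Krt25, Krt71 and Tchh were lower in R1ko (limma adjusted p = 0.0358, 0.0183 and 0.042). The 4 others went the other way, with log2 fold changes of 0.53 for Krt5, 0.37 for Krt14, 0.76 for Krt13 and 0.62 for Krt4. None of these 4 was called, and the median of the list was 0.37. No marker of these lists was at 0 in all libraries, and the part of any of them in the differences above was not tested. Genes with long transcripts were also lower in R1ko replicate 2: the scaled median deviation was -0.09 for genes whose main transcript has at least 5000 bases and 0.09 for those under 1500 bases, and its part was not tested either.

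**Figure D5:**
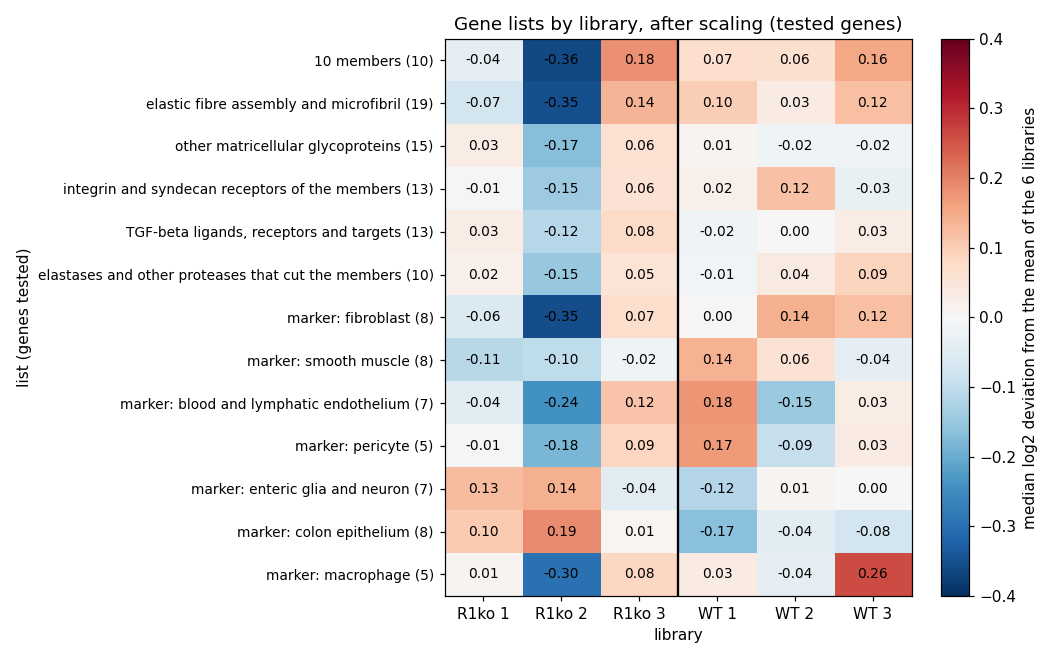
Median log2 deviation from the mean of the 6 libraries, after median-of-ratios scaling, for the tested genes of each list (rows, number of genes in brackets) in each R1ko and WT library (columns). The 10 genes, the elastic fibre assembly list and the fibroblast markers are at -0.36, -0.35 and -0.35 in R1ko replicate 2.

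The mean profile of the 10 genes over the 6 libraries, centred on the log2 scale after scaling, was -0.07, -0.34 and 0.15 in R1ko replicates and 0.07, 0.09 and 0.12 in WT replicates. Among 10580 other genes that averaged 5 TPM or more, the 5 with the smallest root mean square difference from it were Tgfbi (0.034), Pdgfrb (0.035), Car9 (0.036), F2r (0.040) and Col4a1 (0.042), beside a median of 0.219 over all candidates. Tgfbi encodes a fasciclin-domain matrix protein related to periostin, Pdgfrb a growth factor receptor of mesenchymal cells, and Col4a1 a basement membrane collagen. Tgfbi, the nearest of them, had 31.7, 22.6 and 37.8 TPM in R1ko replicates and 36.9, 24.8 and 38.0 TPM in WT replicates. Its value was low in R1ko replicate 2, as was the mean profile. Not every one of the 10 genes was low there after scaling: Fbln1 deviated by 0.11, Sparc by -0.10 and Emilin1 by -0.12. The likeness is over 6 libraries and is a description.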

How the data were processed

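Polyadenylated RNA of 6 whole colons was sequenced as paired reads from SMARTer low-input libraries, per the labels' protocols. Values were deposited as 1 table of TPM, a signal per transcript and library corrected for transcript length. Per the submitters' processing notes it came from kallisto 0.43.1 with sleuth and mm10; the sources used here do not give the transcript release, and sleuth results were not used. Deposited TPM keep no depth, so the depth is unknown and counting error could not be given.

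The table had 132639 lines for 131206 transcripts; the 1433 lines that repeat a transcript did not differ in value (by 0 TPM at most) and were dropped. Of the transcripts, 43008 had no value and 1380 with a value had no gene. Gene sums and single transcripts entered the test as log2(TPM + 0.5) with no scaling between libraries, for genes or transcripts with a mean of at least 1 TPM (limma 3.58.1 in R 4.3.3, lmFit and eBayes with a variance trend, Benjamini-Hochberg adjustment over all features tested, threshold 0.05). Fold changes on this scale understate the change of low genes. Intervals are 95% intervals of that fit. For single values and shares a two-sided exact permutation test was used; with 3 against 3 its p cannot be under 0.1. P-values rest on at most 3 mice per genotype. In limma the spread of each gene or transcript between mice is also drawn toward that of others with a like level. The fit was also run on simulated data with independent noise for each value. That run held none of the shifts between libraries described above, so it does not show how the fit behaves under them. Exons and positions came from GENCODE M21, which may differ from the authors' transcript set.

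The rule for naming took the 10 genes, the most abundant transcript of each and any transcript past the threshold, Tnfrsf1a, the genes past the threshold in 5 related lists or, with none, the 2 with the smallest p, and the 5 genes most alike in profile. 1 gene that this rule names is not reported here. Others are said to have been chosen after their values were seen. The 10 genes and the lists were chosen with earlier results of these data known. Alternatives were pseudocounts of 0.1 and 1, no filter or one at 5 TPM, scaling by median-of-ratios factors or by quantiles, rescaling over transcripts with a gene, no variance trend, robust variance, the replicate number as a block, gene sums over transcripts of at least 0.1 TPM, each library left out, and, chosen after seeing the data, scaling combined with leaving out replicate 2 of either group or with the block, scaled sums of full-length and partial transcripts, and transcript-form shares without R1ko replicate 2.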

Additional observations from a re-analysis of the deposited data

How the results depend on the processing

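Of the 10 genes, 0 were called under each of the 20 alternatives tried on genes, and of their tested transcripts 0 under each of the 19 tried on transcripts. Eln, Fbln1, Fbln2, Postn and Fn1 kept their sign in all 20. Leaving out 1 library moved Eln between -0.84 and -0.33, Postn between -0.63 and -0.33, Fn1 between -0.52 and -0.12, Fbln2 between -0.49 and -0.040, and Fbln1 between 0.16 and 0.36. The lowest adjusted p was 0.169 for Eln (without R1ko replicate 3) and 0.166 for Postn (scaling with the replicate block).

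The other 5 genes changed sign in some fits. Leaving out 1 library moved Fbn1 between -0.47 and 0.15, Fbln5 between -0.21 and 0.12, Tnc between -0.16 and 0.26, Sparc between -0.048 and 0.25, and Emilin1 between -0.13 and 0.12. Quantile normalization gave 0.019 for Fbln5 and -0.023 for Sparc, and rescaling over transcripts with a gene gave -0.11 for Tnc and -0.016 for Sparc. Median-of-ratios scaling gave -0.016 for Tnc, with and without the block. Scaling without R1ko replicate 2, chosen after seeing the data, gave 0.049 for Fbn1, 0.041 for Fbln5 and 0.022 for Emilin1. The median of the 10 genes ran from -0.33 to 0.12 with 1 library left out. The share differences of Fbn1 (-0.14 to 0.17 points) and Fbln2 (-0.21 to 0.052) changed sign when 1 library was left out, and without Sparc in the sum they were 0.17 and 0.20. Without R1ko replicate 2 the Fbln2 exon share difference was 0.49 points. The cause was not tested for any of these.

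Calls over all genes, 13 higher and 25 lower, were 16 lower at a pseudocount of 0.1, 1 and 1 with no filter, 75 and 67 at 5 TPM, 5 and 1 after median-of-ratios scaling, 5 and 2 after quantile normalization, 3 and 1 after rescaling, 35 and 48 with robust variance, 6 and 15 after scaling without WT replicate 2, and 3 and 0 after scaling without R1ko replicate 2. With 1 library left out they ran from 4 to 199 higher and from 15 to 140 lower, and calls in the 5 lists from 0 to 1; that call, and the 1 at 5 TPM, was Cyr61. Calls over all transcripts, 9 higher and 4 lower, were 1 lower at a pseudocount of 0.1, 1 and 0 with no filter, 17 higher at 5 TPM, 2 lower after quantile normalization, 2 and 0 after scaling without WT replicate 2, 1 and 0 after scaling without R1ko replicate 2, and ran from 1 to 21 and from 0 to 36 with 1 library left out. The Tnfrsf1a transcript ENSMUST00000032491 passed at 5 TPM (-1.21), after scaling (-1.22), quantile normalization (-1.32) and rescaling (-1.34), while ENSMUST00000125880 did not pass with no filter (3.25) or after scaling without R1ko replicate 2 (3.27), and ran from 3.11 to 3.37 with 1 library left out.

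Same-numbered libraries deviated together with correlations of 0.0521, 0.132 and 0.184, not all above 0.1, so the numbers are not shown to pair the mice. With the replicate number as a block, calls were 13 higher and 58 lower over genes and 1 and 0 over transcripts, where ENSMUST00000125880 was at 3.25 (adjusted p = 0.0538 by limma). Scaling with the block gave 7 higher and 19 lower over genes, 1 and 0 over transcripts, and 3.24 for that transcript, which did not pass (adjusted p = 0.151). The block changed no call among the 10 genes.

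TPM keep no read depth, so low genes such as Fbln5 carry an unknown counting error, and 3 mice per genotype limit every interval.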
